A study of Bos taurus with 4 samples.

Results

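Genes of the pre-mRNA splicing machinery, 5 in number (LUC7L3, TSSC4, CD2BP2, TRA2A and HNRNPDL), were followed through the neutrophils of calving cows. They are 5 of the 444 genes that could be named on the array, and each was measured by 1 element, printed as 3 spots. The elements were found by gene name, but the names had been selected on results of these same arrays: the fitted differences between pools, for LUC7L3, TSSC4 and TRA2A, and the ratios on the array of day -7 over day 1, for TSSC4, CD2BP2 and HNRNPDL. Their values are therefore a description and carry no test.

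Neutrophils, short-lived phagocytes of the blood, were purified from Bos taurus cows around calving (parturition), with no treatment and no strain named in the labels. One pool, made of RNA from 4 cows, stood for each of the times: day -7, day 0, day 0.25 and day 1 from calving. The 4 two-channel cDNA arrays closed a loop through the pools, and an array is named by its channel 1 pool over its channel 2 pool. In deposited order they are day 0.25 over day -7, then day 1 over day 0, next day -7 over day 1, and last day 0 over day 0.25. The labels do not say whether the cows were the same on every day or whether both arrays of a pool took the same RNA. None of the 21 neutrophil marker genes looked for is named on the array, and CD79B, a B cell receptor chain, was the only marker found of the 28 looked for from other blood cells, so the labelled cell type could not be checked. In pooled RNA, fewer cells of a type and less RNA per cell cannot be told apart.

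Splicing removes introns from pre-mRNA on the spliceosome, which is built from small nuclear ribonucleoproteins (snRNPs). The U1 snRNP recognises the start of the intron, the U2 snRNP its branch site, and the U4/U6.U5 tri-snRNP then joins to form the catalytic particle. SR proteins, rich in arginine and serine, and heterogeneous nuclear ribonucleoproteins (hnRNPs) bind the transcript and shift the choice of splice sites. LUC7L3 is a partner of the U1 snRNP, TSSC4 and CD2BP2 act at the U5 snRNP before or during tri-snRNP assembly, TRA2A is an SR-like activator of exons, and HNRNPDL is an hnRNP.

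The deposited values are log10 ratios, given here on the log2 scale with the median element of an array set to 0. Neither the numerator channel nor a common direction of the arrays is stated in the sources used here. Channel 1 was taken as the numerator, and the values are called positive or negative, never higher or lower. The deposited ratios spanned only 0.574 to 1.53 and may be ratios of transformed intensities, so their size is not a fold change of a transcript. The arrays differed in width, with 90% of the 1295 elements lying between -0.078 and 0.06 on day 0.25 over day -7, between -0.029 and 0.029 on day 1 over day 0, from -0.041 to 0.052 for day -7 over day 1, and from -0.024 to 0.024 for day 0 over day 0.25.

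LUC7L3 had the most negative value of the 5 genes on any array. On day 0.25 over day -7 its 3 spots read -0.072, -0.56 and -0.082, a mean of -0.24 ± 0.28 (SD over spots) and the third lowest of the 1295 elements. One spot gave most of that mean. With the farthest spot of every element left out LUC7L3 read -0.078. The 5th percentile of the array was also -0.078, but over means of all 3 spots, so the 2 values are not on the same footing. The spots read 0.006, 0.052 and 0.049 on day 1 over day 0. They read 0.013, 0.046 and 0.01 for day -7 over day 1, and 0.03, 0.04 and 0.036 for day 0 over day 0.25. All 9 of these values were positive. The means were 0.035 ± 0.026, 0.023 ± 0.02 and 0.035 ± 0.0048, of which the first and the last were above the 95th percentile of their arrays.

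TSSC4 had the signs of LUC7L3 on all 4 arrays, with a mean nearer to 0 on day 0.25 over day -7 and a larger positive one on day -7 over day 1 (0.061 against 0.023). Its spots on day 0.25 over day -7 read -0.026, -0.063 and -0.38, a mean of -0.16 ± 0.19 and the eleventh lowest of the array. Again 1 spot stood far from the others, here the third and not the second. On day -7 over day 1 the spots read 0.055, 0.061 and 0.067, a mean of 0.061 ± 0.0062 that none of the 3 spots departed from by much. They read 0.021, 0.033 and 0.041 on day 1 over day 0, while day 0 over day 0.25 gave 0.013, 0.018 and 0.019. The means on day -7 over day 1 and, at 0.032 ± 0.01, for day 1 over day 0 were above the 95th percentile. Day -7 over day 1 helped to choose TSSC4, so nothing is read from its place there. The spots kept the same order of size on all 4 arrays, from the first spot nearest 0 to the third farthest from it.

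CD2BP2, which also binds the cytoplasmic tail of the lymphocyte receptor CD2, departed from 0 mainly on 1 array. On day -7 over day 1 its spots read 0.057, 0.043 and 0.087, a mean of 0.062 ± 0.022 and 40th from the top of 1295. They read -0.015, -0.0059 and -0.045 on day 0.25 over day -7, then 0.0032, 0.00035 and 0.037 on day 1 over day 0, and 0.012, -0.0021 and 0.019 on day 0 over day 0.25. The array of day -7 over day 1 helped to choose CD2BP2, so nothing is read from its larger values there. The means on the other arrays were within the middle 90% of all elements.

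TRA2A had its larger values on 2 arrays, one that joins day -7 to day 1 and one that joins day 0 to day 0.25. On day -7 over day 1 the spots read -0.05, -0.048 and -0.021, a mean of -0.039 ± 0.016, just inside the 5th percentile. On day 0 over day 0.25 they read 0.099, 0.028 and -0.0073, a mean of 0.04 ± 0.054 that was 15th from the top, with the spots on both sides of 0. Its spots on day 0.25 over day -7 (0.0023, -0.016 and -0.0039) and on day 1 over day 0 (0.016, 0.012 and 0.0017) lay close to 0.

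HNRNPDL was negative on all 4 arrays. Its spots read -0.04, 0.0015 and -0.043 on day 0.25 over day -7, with -0.032, -0.015 and -0.032 on day 1 over day 0. They read -0.051, -0.041 and -0.05 on day -7 over day 1, with -0.022, -0.016 and -0.02 for day 0 over day 0.25. Of the 12 spots 11 were negative, and the second spot was the nearest to 0 on every array. The means were -0.027 ± 0.025, -0.026 ± 0.0098, -0.047 ± 0.0057 and -0.019 ± 0.003 in that order. Only the third of these was below the 5th percentile of its array. That array, day -7 over day 1, helped to choose HNRNPDL, so nothing is read from its place there.

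**Figure D1:**
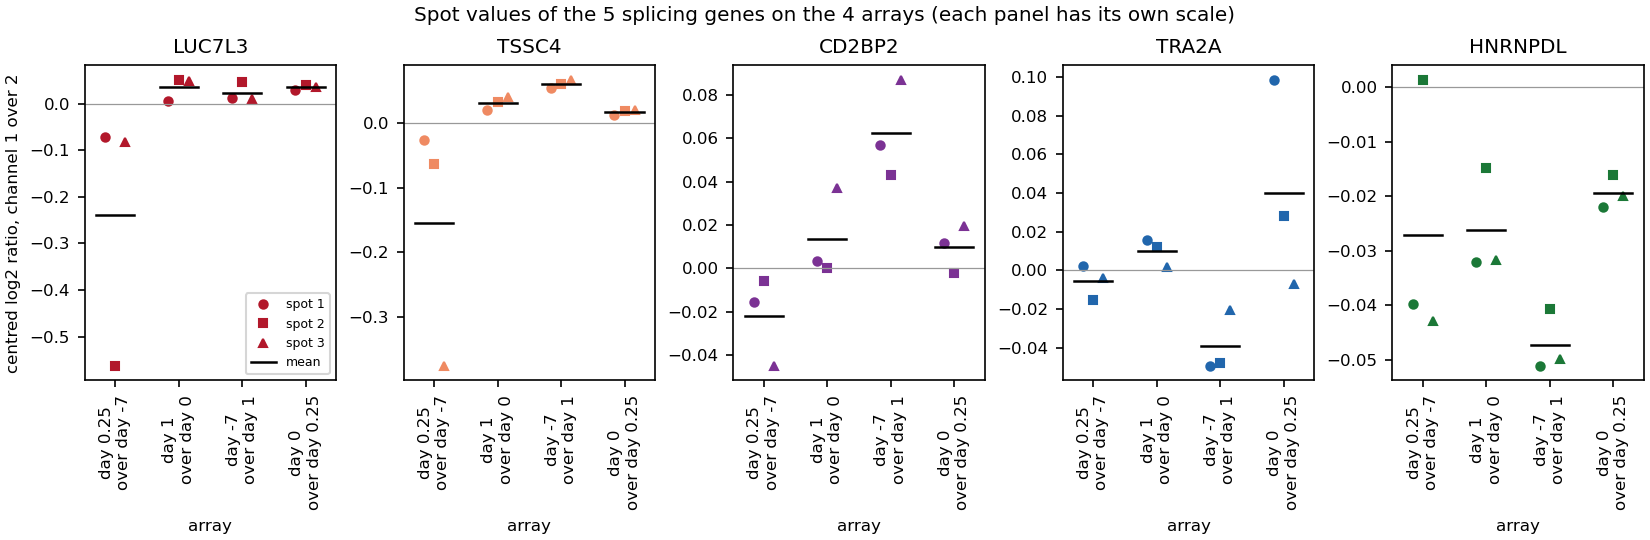
Centred log2 ratio of channel 1 over channel 2 (vertical axis, its own scale in each panel) for the 3 spots of LUC7L3, TSSC4, CD2BP2, TRA2A and HNRNPDL on each of the 4 arrays, with the mean of the spots as a black line. On day 0.25 over day -7 one spot of LUC7L3 (-0.56) and one of TSSC4 (-0.38) lie far below the others, while the spots of HNRNPDL are close together and below 0 on the other 3 arrays.

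The spots of an element are copies of 1 probe by the platform annotation, and for 3 of the 5 genes the same copy was the farthest from 0 on all 4 arrays. It was the second spot of LUC7L3 and the third of TSSC4 and of CD2BP2. Over the 1281 elements with every spot measured this held for 426, or 33.3%, and for 3 of the 13 other splicing elements. For LUC7L3 and TSSC4 the repeated spot is also the one that gave the large negative mean on day 0.25 over day -7. On the other arrays this spot of LUC7L3 read 0.052, 0.046 and 0.04, and that of TSSC4 0.041, 0.067 and 0.019.

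Around a closed loop each difference between pools can be reached by 2 routes, and with no noise, no channel bias and 1 common direction the 4 log ratios would add up to 0. For day 0.25 against day -7 the direct array of LUC7L3 gave -0.24 and the other 3 arrays together gave -0.094. With the median of the 3 spots these became -0.083 and -0.099, so that without the single far spot the routes lay 0.017 apart instead of 0.14. TSSC4 had -0.16 by the direct array and -0.11 by the other 3, and with the median -0.064 and -0.11. CD2BP2 had -0.022 and -0.086, and TRA2A -0.0057 and -0.01, near 0 by either route. HNRNPDL had -0.027 by the direct array and 0.093 by the others, on opposite sides of 0.

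The same routes served day 1 against day -7, where the direct array is that of day -7 over day 1 with its sign turned. TRA2A gave 0.039 directly and 0.044 by the other 3 arrays, and with the median of the spots 0.047 and 0.036. TSSC4 gave -0.061 and -0.11, but -0.062 and -0.012 with the median. LUC7L3 gave -0.023 and -0.17, and with the median -0.014 and 0.0027. CD2BP2 gave -0.062 directly and 0.001 by the other route, so its difference rested on the array of day -7 over day 1 alone. HNRNPDL gave 0.047 and -0.073.

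For day 0 against day -7, which has no array of its own, one route ran through the pool of day 0.25 and the other through that of day 1. TRA2A had 0.034 and 0.03 by these routes, and with the median of the spots 0.023 and 0.035. With the farthest spot of each array left out TRA2A had 0.0082 and 0.034. LUC7L3 had -0.20 and -0.059, TSSC4 -0.14 and -0.093, and CD2BP2 -0.012 and -0.076. With the median of the spots LUC7L3 came to -0.046 and -0.063, TSSC4 to -0.046 and -0.095 and CD2BP2 to -0.0047 and -0.061. HNRNPDL again had opposite signs, -0.046 and 0.073. The routes of 4 of the 5 genes had the same sign in this comparison, of 4 for day 0.25 and of 3 for day 1, beside 48.6%, 53.1% and 43.9% of all 1295 elements in the same order. Fitted differences, which combine both routes, helped to choose LUC7L3, TSSC4 and TRA2A, so nothing is read from these counts.

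**Figure D2:**
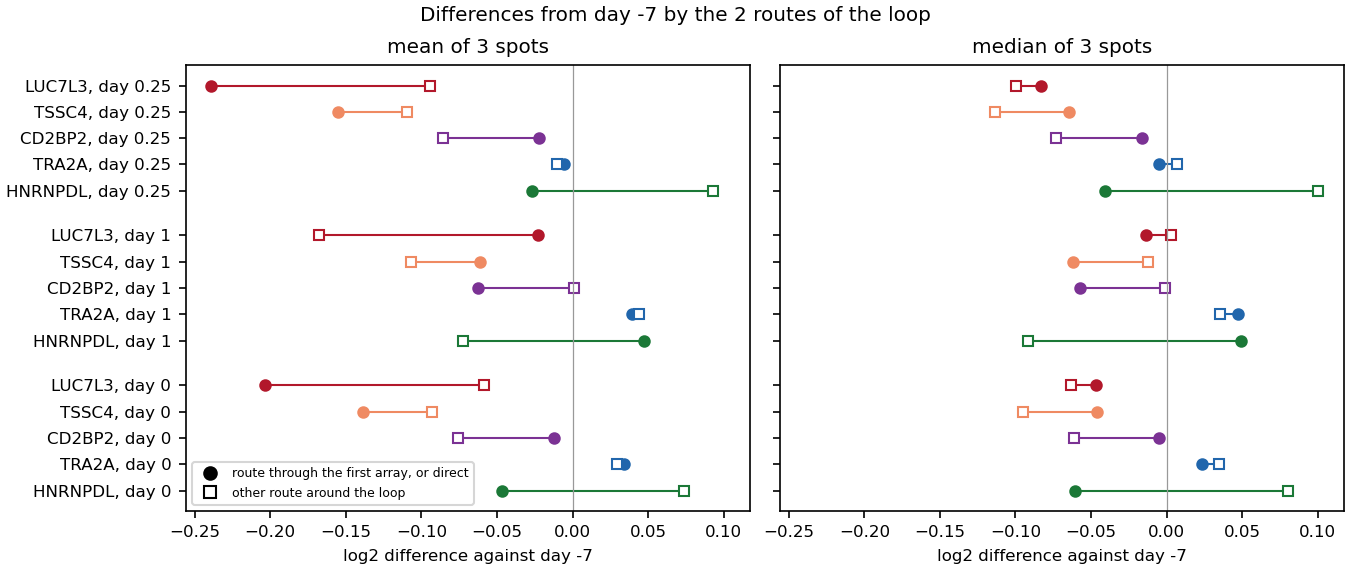
Log2 difference from the pool of day -7 (horizontal axis) for the 5 genes at day 0.25, day 1 and day 0, from the mean (left) and the median (right) of the 3 spots. Filled circles are the direct array, or for day 0 the route through day 0.25, and open squares are the other route, and the line between them is the gap. The gap of LUC7L3 shrinks from 0.14 to 0.017 with the median, and that of TRA2A grows from 0.0045 to 0.012. That of HNRNPDL is 0.12 with the mean and 0.14 with the median, and crosses 0.

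The sum over the loop gives the same gaps as 1 number per gene. It was -0.14 for LUC7L3, -0.12 for HNRNPDL, -0.046 for TSSC4, 0.063 for CD2BP2 and 0.0045 for TRA2A, against an SD of 0.061 over all elements. LUC7L3 was 17th and HNRNPDL 37th from the bottom of 1295. The mean over the 4 arrays cannot come from differences between pools if the arrays run alike, because each pool stands once in each channel. For HNRNPDL this mean was -0.03, and what remained on the 4 arrays after it was taken off was 0.0029, 0.0038, -0.017 and 0.011. Its values were thus larger in the shared part than in the part that separates pools. One sign on all 4 arrays was found for 18.5% of all elements, for HNRNPDL alone among the 5, and for 4 of the 13 other splicing elements.

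All arrays were then fitted together with limma, which gives each difference between pools with a standard error (SE) from 1 residual degree of freedom and the spread over all elements. An element was called when its p, adjusted by Benjamini-Hochberg over the 1295, was below 0.05. With 1 pool a day the error of the fit is that of the arrays, and the spread between cows was not measured. The differences from day -7 all use the pool of day -7, so they are not independent of each other, and they are given side by side.

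The order of the pools in LUC7L3 was day -7, day 1, day 0 and day 0.25, from the most positive fitted value to the most negative, if the arrays run alike. Its fitted differences from day -7 were -0.059 ± 0.029 (SE) at day 1, -0.13 ± 0.033 at day 0 and -0.20 ± 0.029 at day 0.25. With the median of the spots they were -0.0097, -0.055 and -0.087, smaller and in the same order. Neighbours in that order, day 1 and day 0 or day 0 and day 0.25, stood 0.072 ± 0.029 apart in either case. Between day 1 and day 0.25 the difference was 0.14 ± 0.033, and 0.077 with the median. With any 1 array left out it ran from 0.071 to 0.22. If the first array runs the other way, the differences of LUC7L3 from day -7 become 0.060 at day 1, 0.11 at day 0 and 0.16 at day 0.25, the reverse order, and that between day 1 and day 0.25 becomes -0.096.

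TSSC4 had the same order of pools under the same condition. Its differences from day -7 were -0.073 ± 0.023 at day 1, -0.12 ± 0.026 at day 0 and -0.14 ± 0.023 at day 0.25, and with the median of the spots -0.049, -0.071 and -0.077. Day 0.25 stood at -0.028 ± 0.023 from day 0 with the mean and at -0.0061 with the median, so these neighbours in the order differed by about 1 SE or less. With day -7 over day 1 turned, the pool of day 1 came to 0.019, and with day 1 over day 0 turned, day 1 (-0.088) and day 0 (-0.084) changed places. With the first array turned, the differences of TSSC4 were all positive, 0.0051 at day 1, 0.04 at day 0 and 0.089 at day 0.25. LUC7L3 and TSSC4 were among the 26 elements called for day 0.25 against day -7 (2.01% of those tested), and LUC7L3 among the 7 called for any difference among the pools (0.541%). Those comparisons helped to choose the genes, so nothing is read from the counts. Neither gene was called there with the median of the spots, where 34 elements were called for day 0.25 and 6 for any difference. LUC7L3 alone of the 2 was called for day 0.25 when the farthest spot was left out (-0.084 ± 0.024), among 55 elements called. Without centring (-0.20 and -0.14), after a running median was subtracted (-0.20 and -0.13) or with arrays weighted by inverse variance (-0.16 and -0.13), LUC7L3 and TSSC4 kept a negative difference at day 0.25 and were not called. In these settings no element at all was called for day 0.25. No gene of the 5 was called for day 0 or day 1 against day -7, where 0.309% of the elements were in each case.

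If the arrays run alike, the fitted differences of CD2BP2 from day -7 were -0.044 ± 0.027 at day 0, -0.038 ± 0.023 at day 0.25 and -0.047 ± 0.023 at day 1. The 3 later pools differed from each other by 0.0085 at most, less than the SE, but these gaps moved when 1 array was left out. Without day 0 over day 0.25 the pool of day 0.25 stood at 0.054 from that of day 0, and without day 1 over day 0 that of day 1 stood at -0.05 from day 0. With 1 of these 2 arrays left out, day 1 stood at -0.04 from day 0.25, and with 1 of the other arrays left out at 0.023. Under the same condition TRA2A stood at 0.032 ± 0.025 at day 0, -0.0068 ± 0.022 at day 0.25 and 0.04 ± 0.022 at day 1. Its day 0.25 pool was -0.039 ± 0.022 from that of day 0, and -0.017 when the farthest spot of each array was left out. Under that condition HNRNPDL stood at 0.014 ± 0.031, 0.0029 ± 0.027 and 0.017 ± 0.027 at day 0, day 0.25 and day 1, each smaller than its SE. With day -7 over day 1 turned, HNRNPDL came to -0.034 ± 0.017 at day 0 and -0.054 ± 0.015 at day 1. The same turn moved day 1 to 0.047 for CD2BP2 and to -0.019 for TRA2A. With any other single array turned, these genes kept their signs at day 1.

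**Figure D3:**
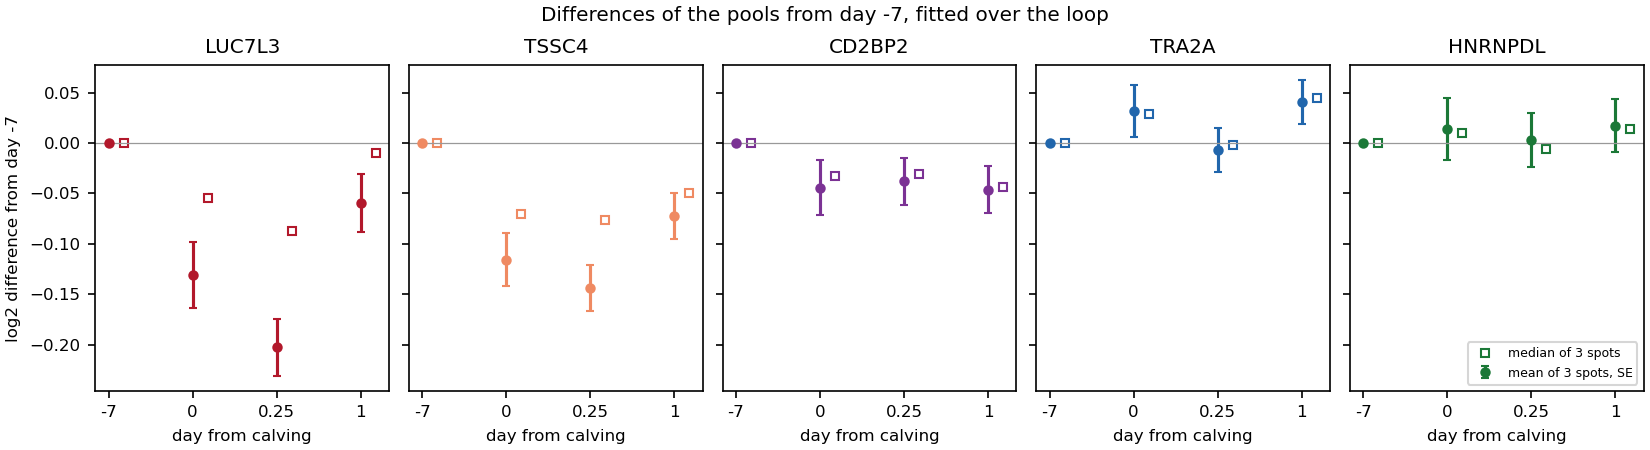
Fitted log2 difference from the pool of day -7 (vertical axis) for the pools of day -7, 0, 0.25 and 1 (horizontal axis, evenly spaced and not to scale) in the 5 genes. Filled points are fits to the mean of the 3 spots with the SE of the fit as bars, and open squares are fits to the median of the spots. LUC7L3 and TSSC4 have their most negative values at day 0.25 (-0.20 and -0.14, and with the median -0.087 and -0.077) if the arrays run alike, and with the first array turned these become 0.16 and 0.089.

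When the 3 spots of 1 array were used as the error, in a test of that array alone with limma, day -7 over day 1 differed from the rest. On it 547 of the 1295 elements, or 42.2%, were called. The spots are technical copies, so that test measures only the spread within the array. TSSC4, CD2BP2, TRA2A and HNRNPDL were called there and LUC7L3 was not, and as this array also helped to choose genes, nothing is read from that count. On the other arrays none of the 5 was called, where 1 element in all (0.0772%) was called on day 1 over day 0 and 0 on each of the others. Unadjusted, p was below 0.05 for 254 elements of day 1 over day 0, for 254 of day 0.25 over day -7, and for 300 of the remaining array.

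A wider list of 240 splicing genes, ordered by role, had 16 genes and 18 elements on the array, the 5 genes above and 11 others with 13 elements. None of these 13 elements was called in limma's loop fit for any of the 6 pairwise comparisons or for any difference among the pools. Of all 1295 elements, 2.01% were called for day 0.25, 0.309% each for day 0 and day 1 against day -7, and 0.541% for any difference. In the comparisons without day -7, 0 of the 1295 were called. At such shares nothing is read from a count of 0 in 13 elements. Of the 13, 1 had an unadjusted p below 0.05, PRPF6 at day 0.25 against day -7, where 157 of all 1295 elements (12.1%) were below it. On the 4 arrays in turn the 13 elements ranged from -0.06 to 0.043, from -0.029 to 0.035, from -0.015 to 0.045 and from -0.01 to 0.025. Their median difference at day 0.25 against day -7 was 0.0027, against -0.00064 over all elements, with 7 positive and 6 negative.

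At the tri-snRNP, PRPF6, which bridges the U5 snRNP to the U4/U6 snRNP, had ratios of -0.06, 0.018, 0.015 and -0.01 on the 4 arrays, in the order in which they were named. Its sign was negative on day 0.25 over day -7 and positive on the next 2 arrays, as in LUC7L3, TSSC4 and CD2BP2. Unlike those genes, PRPF6 was negative on day 0 over day 0.25. The fitted difference at day 0.25 was -0.05 ± 0.022 (adjusted p = 0.391) and at day 0 -0.051 ± 0.026 (adjusted p = 0.865). Spots of PRPF6 on day 0.25 over day -7 read -0.034, -0.034 and -0.11. With the median of the spots its differences were -0.034 at day 0.25 and -0.038 at day 0. SART1, another protein of the tri-snRNP, had 2 elements that differed in sign at day 0.25, with 0.017 ± 0.026 (adjusted p = 0.899) and -0.022 ± 0.022 (adjusted p = 0.806). The first element of SART1 was positive on all 4 arrays, while the second had the signs of TSSC4 on each of them.

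Among the partners of the U1 and U2 snRNPs, the helicase DDX5 stayed within -0.015 and 0.01 on all arrays. The fitted difference of DDX5 at day 0.25 was -0.0022 ± 0.022 (adjusted p = 0.981). LUC7L3 had -0.20 ± 0.029 there, and -0.087 with the median of the spots. LUC7L3 was chosen on such differences, so nothing is read from the gap between these genes. HTATSF1, a cofactor of the U2 snRNP, read 0.045 on day -7 over day 1, with spots of 0.039, 0.052 and 0.044. ZRSR2, which recognises the end of minor introns, read 0.016, 0.0066, 0.0053 and 0.009 on the 4 arrays, all positive and all inside the middle 90%.

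SRSF7 and SRSF11, SR proteins like TRA2A, differed from it in sign on day -7 over day 1. SRSF7 read 0.0088, 0.035, 0.039 and 0.012 on the 4 arrays, positive throughout, and its 0.039 on day -7 over day 1 came from spots of 0.10, 0.0014 and 0.017. SRSF11 read 0.022, -0.0069, 0.0064 and 0.0085. Among the hnRNPs, TARDBP (TDP-43) read 0.032, -0.029, -0.011 and 0.0033, and unlike HNRNPDL it changed sign between arrays. The fitted difference of TARDBP at day 0 was 0.038 ± 0.025 (adjusted p = 0.993).

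NONO and SFPQ pair with each other in nuclear paraspeckles, and which had the larger difference at day 0.25 depended on single spots. NONO read -0.043 on day 0.25 over day -7, from spots of -0.10, -0.033 and 0.0058. It had a fitted difference of -0.04 ± 0.022 (adjusted p = 0.559). SFPQ read -0.012 and had -0.012 ± 0.022 (adjusted p = 0.932). With the farthest spot of each array left out the fitted differences were -0.017 for NONO and -0.022 for SFPQ. WDR77, the partner of the methyltransferase that modifies Sm proteins before snRNP assembly, read 0.022 and 0.028 at its 2 elements on that array. On day -7 over day 1 the elements of WDR77 had opposite signs, 0.021 and -0.015.

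In the test over the spots of day -7 over day 1, 3 of the 13 other splicing elements were called, 23.1% against 42.2% of all elements. These were HTATSF1 (adjusted p = 0.0132), the second element of WDR77 (adjusted p = 0.042) and the second of SART1 (0.017, adjusted p = 0.0489). After a running median over 27 elements in list order was subtracted, HTATSF1 alone of the 3 was called (0.03, adjusted p = 0.0281), where 317 of all 1295 elements, or 24.5%, were.

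**Figure D4:**
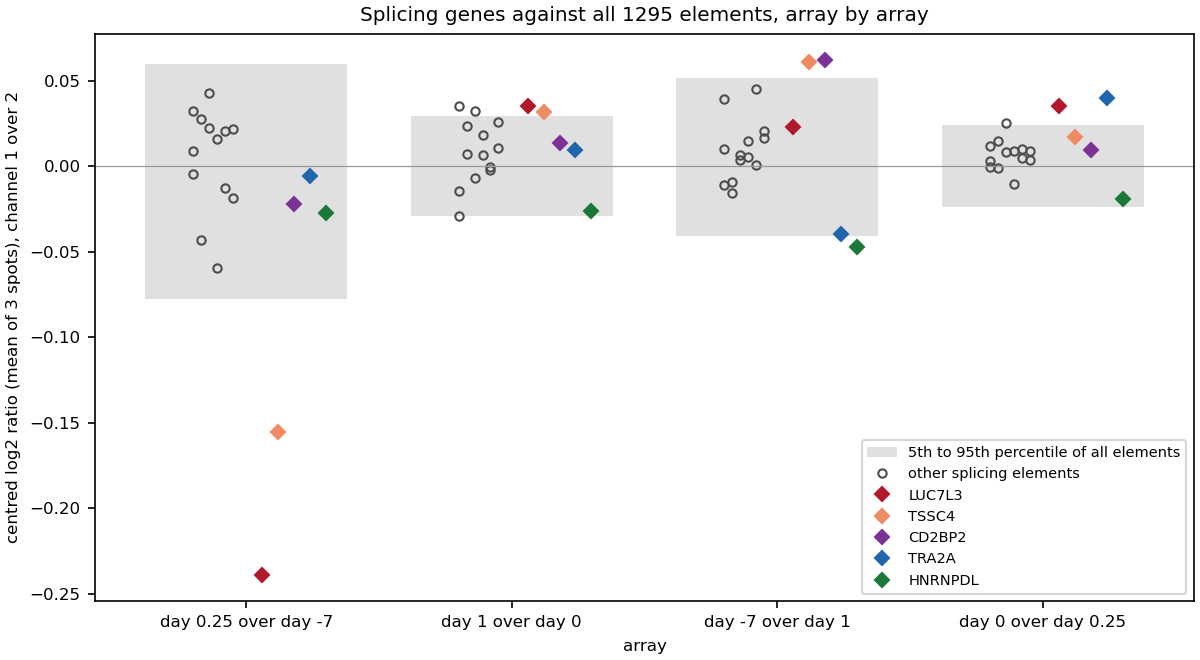
Centred log2 ratio, mean of 3 spots (vertical axis), of the 18 splicing elements on each array (horizontal axis). Grey boxes span the 5th to the 95th percentile of the 1295 elements, open circles are the 13 other splicing elements and diamonds the 5 genes. LUC7L3 (-0.24) and TSSC4 (-0.16) lie below the box on day 0.25 over day -7, where the other splicing elements stay between -0.06 and 0.043. Both genes were chosen on fitted differences of these arrays, so their place below the box is a description.

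The genes whose 4 ratios lay nearest to each of the 5, by the root mean square difference over the 4 arrays among 443 named genes, were none of them on the splicing list. Only 16 of the named genes are on that list, so nothing is read from this. LUC7L3 was nearest to CPT2, a mitochondrial enzyme of fatty acid oxidation (0.015), and then to the adenylyl cyclase ADCY7 (0.035), with a median of 0.12 to all genes. Distances were taken on the mean of the spots, so those of LUC7L3 and TSSC4 include the far spot of each on day 0.25 over day -7. CPT2 and ADCY7 read -0.25 and -0.18 on that array, beside -0.24 for LUC7L3 with the mean and -0.083 with the median. TSSC4 was nearest to NARF, a partner of prelamin A (0.019), and the glutaredoxin GLRX3 (0.029), and its distance to LUC7L3 was 0.047. CD2BP2 was nearest to the acid phosphatase ACP5 (0.0025) and to GCDH, an enzyme of lysine breakdown (0.0031), which read 0.059 and 0.068 on day -7 over day 1. TRA2A was nearest to the mitochondrial ribosomal protein MRPS34 (0.012) and to FAM78A (0.015). HNRNPDL was nearest to PAIP2, an inhibitor of the poly(A)-binding protein (0.0076), and to the ribosomal protein RPSA (0.011), and both were negative on all 4 arrays too. Nearest genes were picked on these same 4 ratios, so nothing is read from signs or values that they share with a member.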

How the data were processed

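Per the labels, RNA pools of 4 cows were hybridised on 4 two-channel arrays. The deposited values are log10 ratios by their own pattern: raised to base 10, 99.8% to 100% of them fall on multiples of 0.0001 (tolerance 2% of the last decimal), against 3.52% to 3.99% as log2. How the authors corrected background, normalized and assigned dyes is not stated in the labels or the file. As deposited, the column medians were 0.00139, 3e-07, -0.000782 and 8.73e-05 (log10), so the columns are centred near 0.

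Values were turned into log2 ratios, the 3 consecutive spots of each of 1296 elements were averaged and arrays were centred on their median element. On day 0.25 over day -7, 20 spots had no value, none of them of a splicing element, which left 1295 elements tested. Platform annotation gave 1 gene name to 486 elements (485 updated by gene ID and 1 by synonym in the ARS-UCD2.0 gene table, used for names only). Differences were fitted with limma 3.58.1 in R 4.3.3, which was tested on simulated data. The genes named are the 5 members, all other genes of the splicing list on the array and the 2 nearest genes of each member. Members and lists were chosen with earlier results of these data known. Plots used matplotlib 3.10.9 (Python 3.11.15).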

Additional observations from a re-analysis of the deposited data

How the results depend on the processing

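Elements called for day 0.25, day 0 and day 1 against day -7 and for any difference among the pools numbered 26, 4, 4 and 7. They were 34, 4, 5 and 6 with the median of the spots, and 55, 12, 13 and 29 with the farthest spot left out. They were 0, 0, 0 and 0 without centring, with a running median subtracted, or when the sign was turned for any one array other than day 1 over day 0. After turning day 1 over day 0 they were 84, 8, 31 and 46. Arrays scaled to equal SD gave 7 for day 0.25. Weights by the inverse variance of the arrays, chosen after seeing the data, gave 0 for day 0.25 and 0 for any difference. With limma's arrayWeights every array had a weight of 1, because the residuals of a closed loop are equal on its arrays. Of the splicing elements, 2 were called at day 0.25. The count was 0 with the median of the spots, where 34 of all elements were called, and 1 with the farthest spot left out, where 55 were. It was also 0 without centring, with the running median, with those weights and with each of the same 3 signs turned. In those settings 0 of all elements were called, so nothing is read from their counts. After the first array was turned, LUC7L3 stood at 0.16 and TSSC4 at 0.089 for day 0.25. With any 1 array left out, which leaves a value and no test, LUC7L3 ran from -0.24 to -0.094 and TSSC4 from -0.16 to -0.11. Over the spots of day -7 over day 1 the running median left 317 elements called of 547. No paired analysis was possible because each array has its own pair of pools and there are no replicate numbers. No intensities were used, so signal over background is unknown, and 4 arrays limit the precision.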
